A study of Mus musculus with 5 samples.

Results

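The genes described here encode 10 SR proteins, the serine- and arginine-rich splicing factors Srsf1, Srsf2, Srsf3, Srsf4, Srsf5, Srsf6, Srsf7, Srsf9, Srsf10 and Srsf11. They were taken by gene symbol from the 18349 genes of the mRNA-seq table. Their contacts with PABPC1, which coats poly(A) tails in the cytoplasm, were the 73 of 90337 CLIP-seq peaks and the 29 of 11907 deletion sites that lay on the gene's strand within its span in GENCODE M21 (mm10). A deletion site is a single base at which CLIP tags carry a deletion, left when reverse transcriptase reads past a cross-linked base.

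The study used MEL cells, a mouse erythroleukemia line, with no treatment or genotype contrast. PABPC1 CLIP-seq was made in 3 samples, from cells given ultraviolet light at 400 mJ/cm2 and a lysate digested with RNase for 10 min, and poly(A)+ mRNA-seq was made in 2 samples. The authors' files give 1 pooled list of peaks, 1 pooled list of deletion sites and 1 pooled RPKM (mRNA-seq reads scaled to gene length and library size) a gene, so no value below carries a replicate error and no difference between genes was tested against one. All 10 genes taken as markers of this line, Spi1 at RPKM 105 among them, were listed. They ran from 19.6 for the globin gene Hbb-bs to 428 for the transcription factor Klf1. Of 5 fibroblast markers, Col1a2 and Col3a1 were not listed, Col1a1 stood at 0.873, Pdgfra at 0.211 and Thy1 at 65.3. The pooled mRNA-seq count rested on 35251228 reads.

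SR proteins bind exonic sequence through RNA recognition motifs and recruit the splicing machinery through an arginine- and serine-rich domain. Several of them shuttle to the cytoplasm, where they take part in mRNA export and translation. They are known to limit their own output: many SR genes contain a poison exon, or an intron within the 3' UTR, whose splicing leaves a premature stop codon or an exon junction after the stop and sends the mRNA to nonsense-mediated decay. Their mRNAs therefore exist in a stable coding form and in forms annotated as decay substrates.

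PABPC1 peaks on SR mRNAs lay mostly in 3' UTRs, and more so by height than by number. Of the 73 peaks, 44 had their midpoint in a 3' UTR, 22 in coding sequence (CDS), 1 in a 5' UTR and 6 in an intron. By height, the authors' whole-number peak score read here as the number of tags at the summit, the 3' UTR peaks held 5513 of 6123 tags, or 90.0%, against 83.7% for 29 hnRNP genes, the other large family of splicing regulators, and 72.3% over all peaks of the series. The CDS peaks held 8.70% of the height, against 13.5% for hnRNP genes and 19.2% over all peaks. The 29 deletion sites all lay in 3' UTRs, against 88.7% of 151 sites in hnRNP genes and 83.0% of 47 in splicing partners of SR proteins. Over all sites of the series the share was 73.5%, with 11.4% of sites outside genes, where sites of SR genes cannot be by how they were chosen. A count of 0 among 29 elsewhere allows a share of up to 10.3% by a limit of 3 counts, and of up to 11.9% by the exact binomial 95% interval, both of which treat neighbouring sites as independent.

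The share of peaks in 3' UTRs was 60.3% for SR genes (exact binomial 95% interval 48.1 to 71.5), against 38.2% of 343 peaks for hnRNP genes and 46.0% for all peaks. Peaks in CDS were 22 of 73 for SR genes (interval of the share 19.9% to 42.0%), against 163 of 343, or 47.5%, for hnRNP genes. Within the RPKM range of the SR genes, 42.1% of the peaks of protein-coding genes lay in a 3' UTR. The other splicing partners of SR proteins, 33 listed genes such as the kinases that phosphorylate them and the U2AF subunits, had 31.2% of 420 peaks in a 3' UTR. Such intervals cover counting error only, and peaks of 1 gene are not independent of each other.

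**Figure D1:**
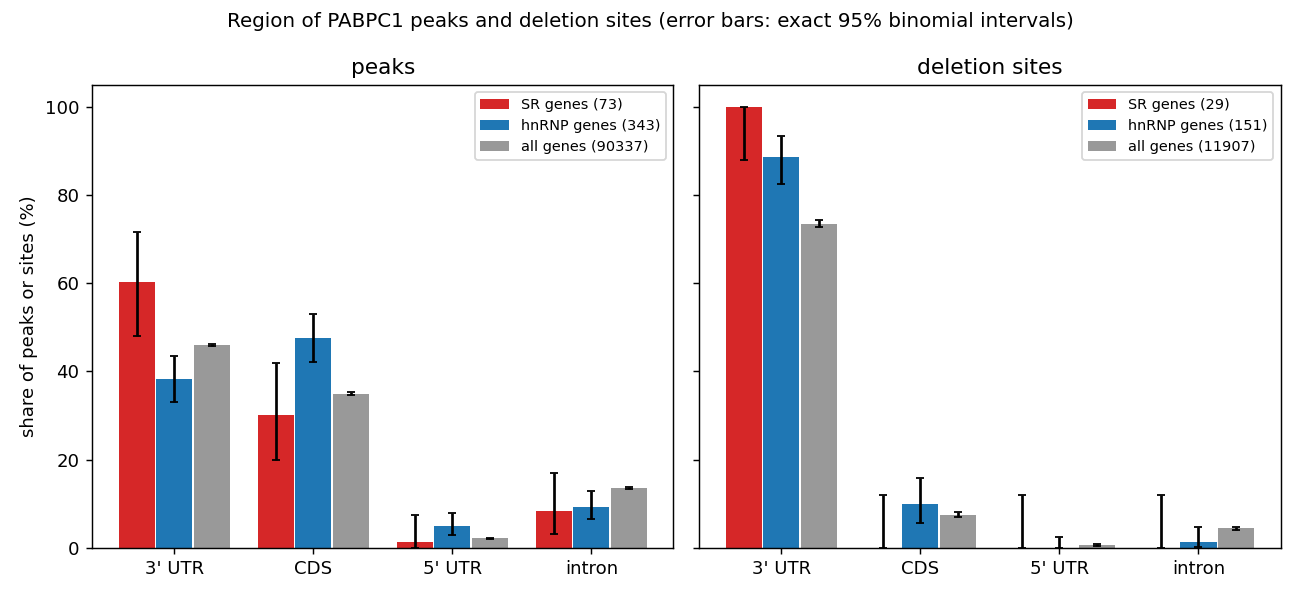
Share of PABPC1 peaks (left) and deletion sites (right) by region, in percent of each list, for SR genes, hnRNP genes and all genes of the series, with exact 95% binomial intervals and the number of peaks or sites in the legend. SR genes have 60.3% of their peaks and all 29 deletion sites in 3' UTRs.

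All 10 SR genes held an exonic peak, as did 96.6% of the 10211 protein-coding genes with RPKM of at least 1. Between 3 and 14 peaks fell in a gene, and their median height was 23 tags, against 9 over all peaks. In each of the 10 genes the tallest peak lay in the 3' UTR, which was the case in 90.3% of protein-coding genes with a peak. Deletion sites were found in 8 of 10 genes, all but Srsf4 and Srsf10, beside 37.0% of protein-coding genes and 53.3% of the 4467 protein-coding genes within the RPKM range of the SR genes. Within that range the median RPKM was 44.1, against 161 for the SR genes.

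mRNA levels of the family spread 9.97-fold. Srsf9 had the highest level at RPKM 210.3, followed by Srsf7 at 193, Srsf2 at 193, Srsf1 at 173, Srsf6 at 169.6 and Srsf3 at 152. Below these stood Srsf5 at 81.6, Srsf11 at 51.4, Srsf4 at 42.2 and Srsf10 at 21.1. The 6 abundant genes thus lay close together and the 4 others well below them, and without replicates the order among neighbours has no error. The lowest value, that of Srsf10, still corresponds to 743 reads per kb of gene.

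Part of these levels is uncertain. Srsf2 overlaps Mettl23 and Mfsd11, which are transcribed from the opposite strand, and the sources used here do not say whether reads were counted by strand, so reads of these genes cannot be told apart from its own. Srsf3 has a copy, Gm12355, listed by RefSeq as an Srsf3 pseudogene, at RPKM 34.5 and with 9 tags in 1 peak. The sources used here also do not say how reads shared by such copies were counted.

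PABPC1 signal per length was lowest in Srsf10 and Srsf4, the least abundant members. Summed exonic peak height per kb of exon was highest in Srsf9 and Srsf5, at 373 tags per kb each. It was 263 in Srsf7, 257 in Srsf1, 233 in Srsf2, 226 in Srsf11, 202 in Srsf3 and 194 in Srsf6, with 62.0 in Srsf4 and 55.5 in Srsf10 as the lowest values. Srsf5 thus equalled Srsf9 in signal per kb at a lower mRNA level, and Srsf11 lay among the abundant members. Across the 10 genes the rank correlation of the per-kb signal with RPKM was 0.733, beside 0.711 across 9868 protein-coding genes with a peak. Both measures are divided by a gene length, but not the same one. The signal used exons of the basic transcripts of the annotation, while RPKM turned into whole reads with exons of all annotated transcripts. Genes are not independent replicates.

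**Figure D2:**
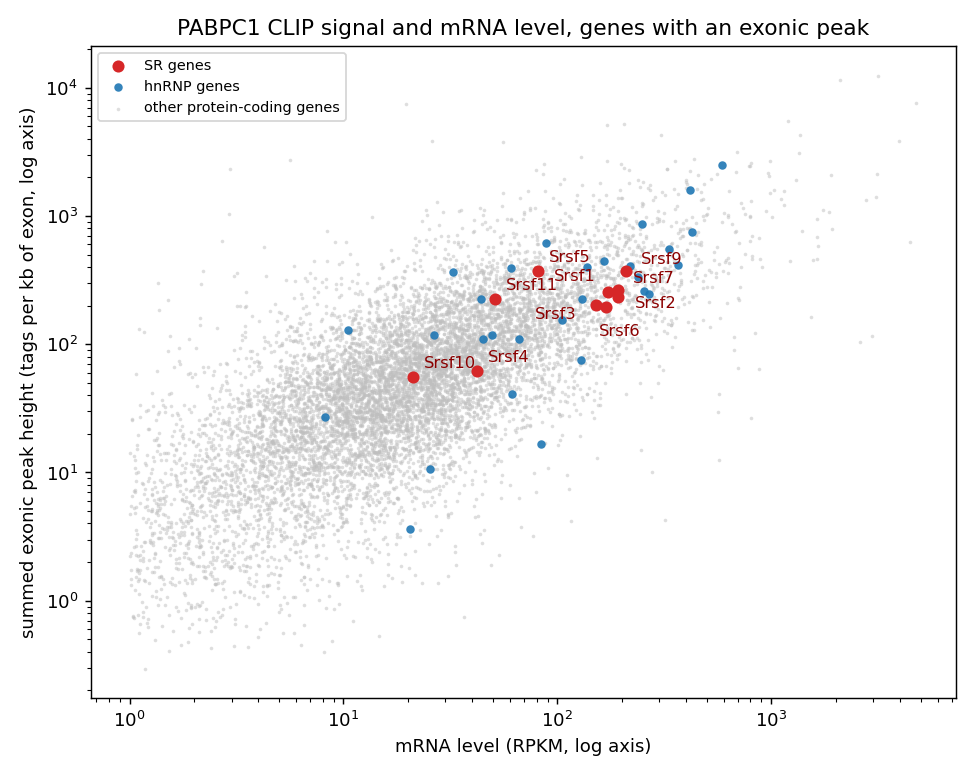
Each point is 1 of 9868 protein-coding genes (RPKM of at least 1, exonic peak present), by mRNA level (RPKM) and summed exonic peak height (tags per kb of exon), both on log axes, with SR genes named in red and hnRNP genes in blue. SR genes run from 21.1 RPKM and 55.5 tags per kb for Srsf10 to 210.3 RPKM and 373 tags per kb for Srsf9.

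Relative to mRNA level, the median PABPC1 signal of SR genes was lower than that of all protein-coding genes. The log2 ratio of height per kb to RPKM, with 1 added to each, had a median of 0.55 over the 10 SR genes. It was 0.89 over hnRNP genes, 0.74 over the splicing partners and 1.14 over protein-coding genes. A median below that of protein-coding genes was thus not particular to SR genes on this scale. Of the 10 genes, 3 stood above the protein-coding median: Srsf5 at 2.18, Srsf11 at 2.11 and Srsf10 at 1.35. The other 7 lay between 0.20 for Srsf6 and 0.83 for Srsf9. Adding 1 pulls the ratios of weakly expressed genes towards 0. The lengths behind signal and RPKM differ, as stated above, and what this does to the ratio of each gene was not tested.

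Without division by length the median log2 ratio of summed height to RPKM was 1.94 for SR genes, against 2.92 for hnRNP genes, 2.81 for the splicing partners and 2.78 for protein-coding genes. On that scale 4 SR genes stood above the protein-coding median, with Srsf10 at 3.88, Srsf11 at 3.80, Srsf1 at 3.04 and Srsf5 at 2.91. Srsf1, with 5558 nt of exon, changed side between the scales, and per kb its ratio was 0.57. Among hnRNP genes, Hnrnpa2b1 (RPKM 591) stood at 3.37, Pcbp1 (425) at 1.68 and Hnrnpab (416) at 3.42. The list ran from -1.42 for Hnrnpa1, which has many processed copies, to 5.88 for Hnrnpa3. Among the splicing partners, the U1 protein gene Snrnp70 (RPKM 438) had the lowest ratio at -0.79. The RNA helicase gene Ddx39b (392) stood at 0.82 and U2af2 (289) at -0.08, and Luc7l2 had the highest at 5.47.

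Srsf1, Srsf3 and Srsf7 are SR proteins known as adaptors for the mRNA export receptor. Srsf1 (chromosome 11, 88047373 to 88053755, plus strand) had 7 peaks, 5 in the 3' UTR at 627, 170, 478, 39 and 39 tags in 5' to 3' order and 2 in CDS at 15 and 59. The midpoints of its 2 tall peaks lay 3936 and 2256 nt before the gene's end, and the last 589 nt held no peak midpoint. Srsf7 (chromosome 17, 80200080 to 80207307, minus strand) had 3 CDS peaks of 23, 29 and 30 tags and 3 peaks in the 3' UTR, of 410, 33 and 154. The tallest covered the end of a shorter annotated transcript, with its midpoint 1362 nt before the gene's end, and the last covered the gene's end itself. Srsf3 (chromosome 17, 29032628 to 29043373, plus strand) had no CDS peak. Its 8 peaks in the 3' UTR began with the tallest at 257 tags, 1629 nt before the end, and ran from 10 to 109 tags thereafter, and the only 5' UTR peak of the family, at 18 tags, lay at its start. A 5' UTR peak was found in 14.1% of protein-coding genes.

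Srsf4, Srsf5 and Srsf6 share a pair of RNA recognition motifs and an arginine- and serine-rich tail. Srsf5 (chromosome 12, 80945504 to 80950507, plus strand) had nearly all its signal in 1 peak of 585 tags over the transcript end, 94.7% of its height, beside peaks of 16 and 17 tags. Srsf4 (chromosome 4, 131873617 to 131901706, plus strand) also peaked over its end, at 108 tags, and its other 4 peaks reached 4 to 11 tags. Srsf6 (chromosome 2, 162931528 to 162937121, plus strand) had its tallest peak, 526 tags over 1046 nt, at 2172 nt before the end. The peak at its annotated end held 70 tags.

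Srsf2, which binds exonic splicing enhancers and remains mostly in the nucleus, had 3 peaks (chromosome 11, 116849901 to 116853094, minus strand): 90 tags in CDS, 141 in the 3' UTR and 235 at the very end. Srsf9, with a short arginine- and serine-rich tail, had 4 CDS peaks of 13, 7, 20 and 71 tags and 1 of 323 tags over its end (chromosome 5, 115327177 to 115333080, plus strand). Placed by midpoint, these CDS peaks left it the lowest share of height in the 3' UTR among the 10 genes, 74.4%. The peak of 71 tags also reached into the 3' UTR, where its deletion site lay. With all annotated transcripts all 4 counted as 3' UTR peaks. Srsf10, known to repress splicing when dephosphorylated, and Srsf11, an SR-related splicing factor, had the most peaks, nearly all of them low. Srsf10 (chromosome 4, 135855747 to 135869908, plus strand) had 12 peaks, of which the last, over the gene's end, reached 184 tags and the others 4 to 34. Srsf11 (chromosome 3, 158010473 to 158036639, minus strand) had 14 peaks, 8 of them in CDS at 5 to 57 tags, and its tallest, 420 tags, lay 1089 nt before the end.

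**Figure D3:**
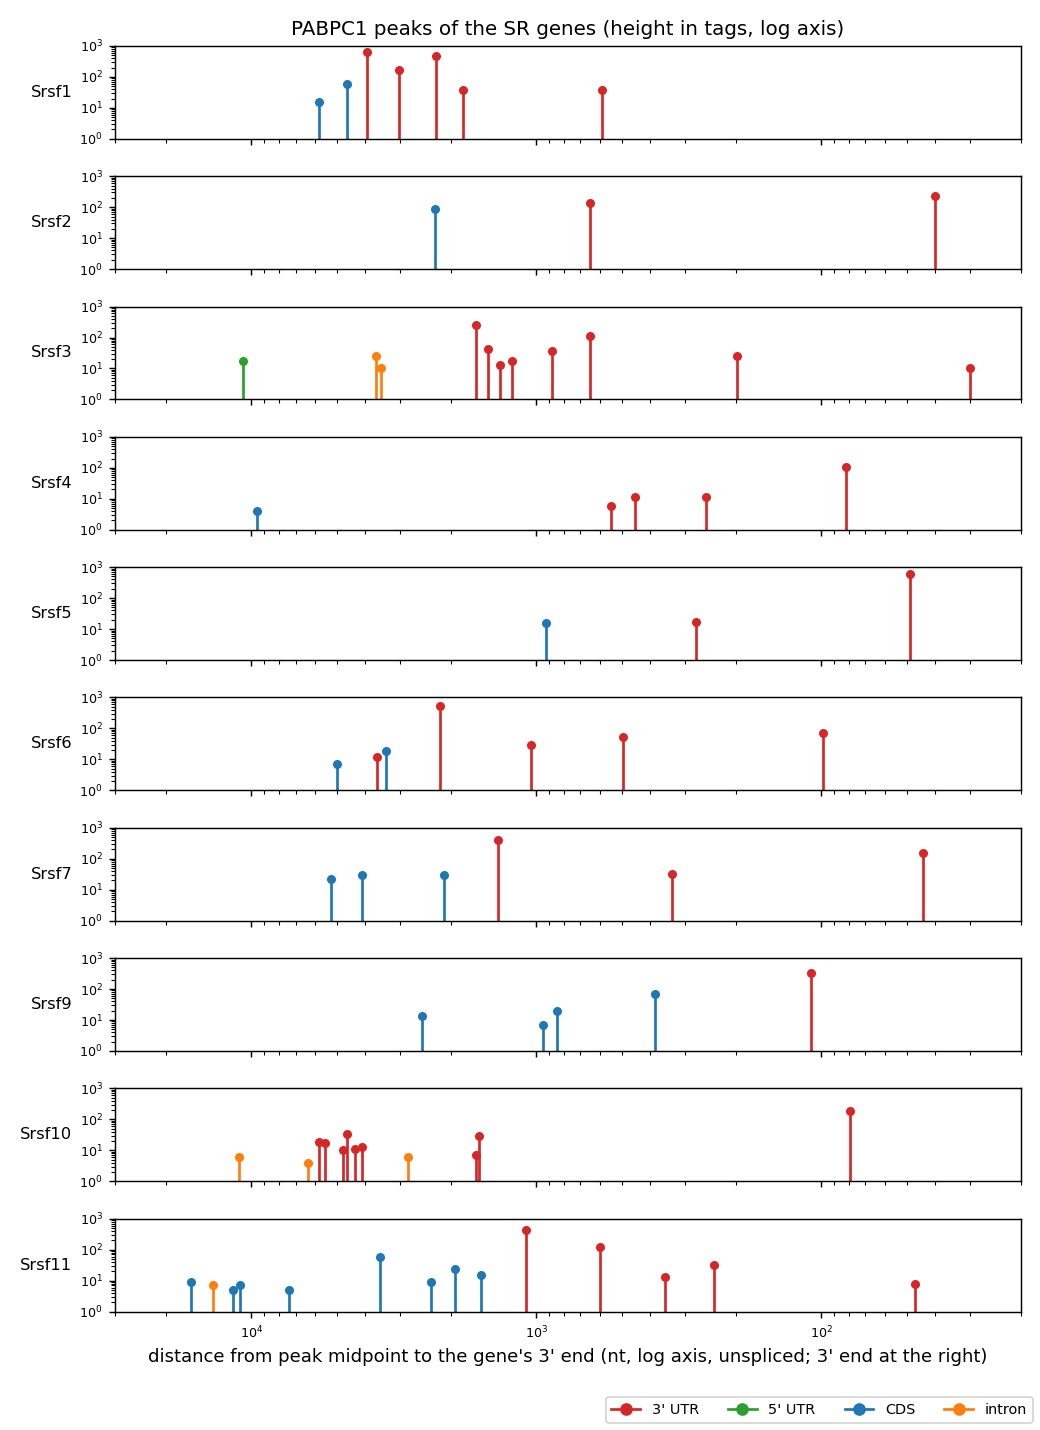
Peaks of the 10 SR genes, one panel a gene, by unspliced distance of the peak midpoint from the gene's 3' end (nt, log axis) and height (tags, log axis), coloured by region. The tallest peak sits over the end in Srsf2, Srsf4, Srsf5, Srsf9 and Srsf10 and 1089 to 3936 nt before it in the other 5 genes.

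The internal tall peaks mostly covered ends of other annotated transcripts. The tallest peak of the gene spanned an annotated transcript end in 6 of 10 SR genes when basic transcripts were used, beside 46.2% of protein-coding genes, and in 9 of 10 with all annotated transcripts, beside 55.3%. The exception was Srsf1, whose tallest peak ended 190 nt from the nearest annotated end. The internal tallest peaks that covered an end were 1046 nt wide in Srsf6, 602 in Srsf11, 326 in Srsf7 and 132 in Srsf3. Wide peaks, and genes with many annotated transcripts, cover an end more readily, and the shares were not adjusted for either. Among 3' UTR peaks of SR genes, 13 of 44 covered an end of a basic transcript (29.5%), against 17.8% of 3' UTR peaks of all genes.

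The deletion sites are listed as single bases. The windows below show, for each of the 8 genes with a site, 30 nt around the site with the most deletions, 5' to 3' on the mRNA. Capitals mark the bases listed as deleted, every listed site of the gene in the window included. In Srsf1, Srsf3, Srsf6, Srsf9 and Srsf11 the marked bases, and in Srsf5 the first of them, lie in runs of the same base. Deleting any base of such a run leaves the same sequence, so the position within the run is not fixed. In Srsf11, 3 sites tied at 6 deletions, and the window shows the one deleted in the largest share of tags, 23.1%, which lies in the peak of 126 tags and not in the tallest. Sequences are from the GENCODE M21 transcripts and positions from mm10.
Srsf1, chr11:88051452-88051481: gccgtttttctttgAaaaaaataaacattt
Srsf2, chr11:116850145-116850174: cgggccttgcataTAaataatggagcatac
Srsf3, chr17:29041705-29041734: taggtcctgcccagTTttaagtgtgatgta
Srsf5, chr12:80950466-80950495: tgTttgttattgATAataaaatactaagta
Srsf6, chr2:162935174-162935203: tgagttatgtaagaTttaaataaaagtttg
Srsf7, chr17:80201456-80201485: atgtctgtaaagtGTaacctaggaaggatc
Srsf9, chr5:115332755-115332784: atgagctgggctacTttgtgctcagagtct
Srsf11, chr3:158011170-158011199: ccttcatgtgctttTaaaatacgacagctc

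The windows differ in the motifs they hold. Those of Srsf1, Srsf5 and Srsf6 hold AATAAA, the main poly(A) signal, just 3' of the marked bases. This signal overlaps the last of them in Srsf5 and, in Srsf1, the run of A that holds the marked base. The window of Srsf2 holds ATATAA. Those of Srsf3, Srsf7, Srsf9 and Srsf11 hold neither of these motifs, nor the variant signal ATTAAA or the run AAAAAA. These motifs were searched on the mRNA strand only, and AAAAAA and AATAAA overlap in Srsf1. Over all 29 sites, AATAAA lay within 20 nt of 8 (27.6%), against 30.9% of the 10029 exonic sites of all genes. ATATAA was near 2, ATTAAA near 1 and AAAAAA near 1, and 19 of 29 (65.5%) had none of the 4, against 48.9% of all exonic sites. The deleted base was T at 20 sites (69.0%), A at 6, G at 3 and C at 0, whereas over all exonic sites T made up 48.1% and A 44.9%. Adjoining bases count as separate sites here.

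The sites with a poly(A) signal lay at transcript ends, and most of the others did not. The 8 sites of SR genes near an AATAAA were 6 to 29 nt before an annotated end of some transcript, while 2 of the other 21 were within 50 nt of one and their median distance was 128 nt. Over all genes 74.4% of 3' UTR sites with an AATAAA were within 50 nt of an annotated end, against 21.1% of those without. By ends of basic transcripts alone, 6 of the 29 SR sites (20.7%) lay within 50 nt, against 34.2% of the sites of all genes.

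Single sites differed widely in how often they were deleted. The site of Srsf3 shown above was deleted in 51 of 226 tags, 22.6% (exact binomial 95% interval 17.3 to 28.6), and the adjoining base in 16 of 217. Srsf6 had 50 deletions in 328 tags, 15.2% (11.5 to 19.6), 20 nt before the end of a transcript annotated as a retained intron. In Srsf7 the adjoining bases 80201472 and 80201471 carried 39 deletions each, in 216 and 213 tags. In Srsf2 the adjoining bases had 18 deletions each, at 34.0% and 35.3% of tags. Equal counts at adjoining bases may come from the same tags.

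Among the listed sites of SR genes, the most covered were the least often deleted. No site of the whole list had fewer than 3 deletions, so a thinly covered base could enter only with a large share. The relation is therefore partly set by how the list was made. The 5 sites with the highest coverage, 407 to 579 tags, were deleted in 2.46% to 3.45% of tags, against a median of 12.8% over all sites of the series. They are 4 sites of Srsf5 near its poly(A) signal, all in 1 peak, and 1 of Srsf1. The site of Srsf9, deleted in 9 of 44 tags, lay in a peak whose midpoint was in CDS. The highest share, 71.4%, was at Srsf1 position 88049930 but rested on 5 of 7 tags. The 29 sites had a median of 10.7% and carried 474 deletions in all. A tag that lacks adjoining bases counts at each of them, so this sum is not a number of tags. Joining sites within 10 nt left 20 separate places, and all 29 lay inside a peak.

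**Figure D4:**
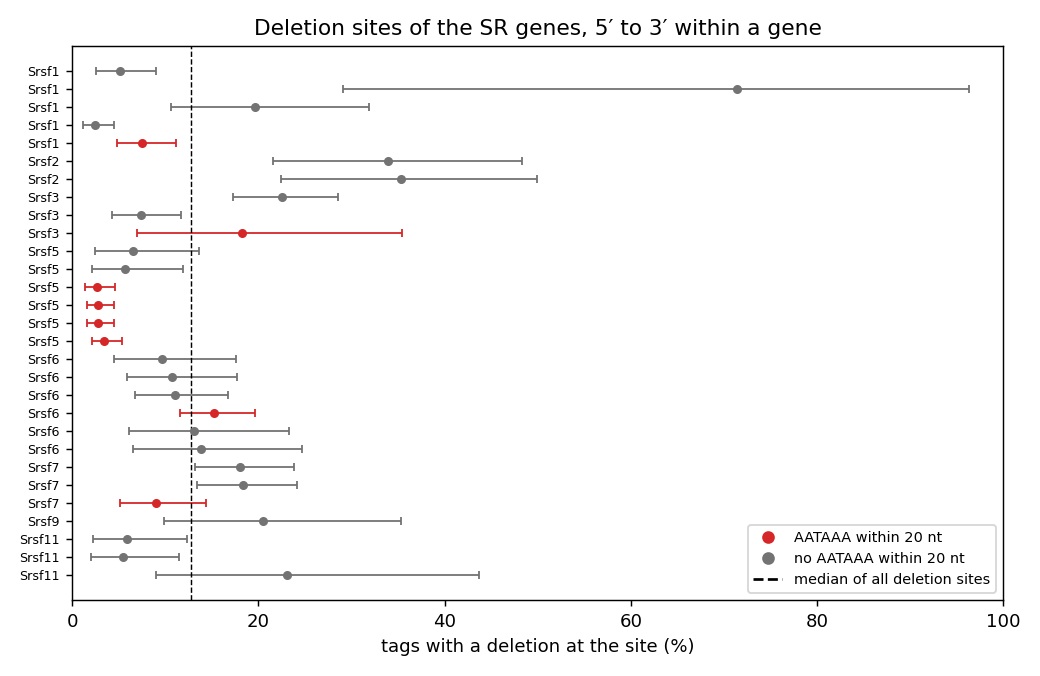
Percent of tags with a deletion at each of the 29 deletion sites of SR genes, ordered 5' to 3' within a gene, with exact 95% binomial intervals and the median over all sites of the series as a dashed line. Sites with AATAAA within 20 nt are red, and the 4 such sites of Srsf5 lie between 2.67% and 3.45%.

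The share of SR peaks in introns was near that of other protein-coding genes. The 6 intronic peaks made up 8.22% of SR peaks, against 7.22% of peaks in protein-coding genes within the RPKM range of the SR genes, 9.29% in those with RPKM of at least 1 and 13.5% of all peaks. Their heights were 26 and 10 tags in Srsf3, 6, 4 and 6 in Srsf10 and 7 in Srsf11, with a median of 6.5, against 5 over intronic peaks of all genes and 8 for hnRNP genes. Intronic peaks were found in 3 of 10 SR genes, beside 34.1% of protein-coding genes and 32.9% of those in the RPKM range. Of the 6, 5 lay in exons of transcripts outside the basic set, and the peak of Srsf10 at 135867067 to 135867102 was intronic in every annotated transcript.

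Most poison exons held no PABPC1 peak, in SR genes as in protein-coding genes. The annotation held 12 exons in 7 SR genes that belong to transcripts labelled as nonsense-mediated decay substrates and lie wholly in an intron of the principal transcript. Of these, 2 were touched by a peak, beside 4.69% of 1662 such exons in protein-coding genes with RPKM of at least 1, and none held a deletion site. The Srsf11 exon was touched over 2 of the 61 nt of a peak of 7 tags. No peak touched the 10 others, of which 3 were in Srsf4, 2 in Srsf9 and 1 each in Srsf2, Srsf3, Srsf6, Srsf7 and Srsf11. Those of Srsf2 and Srsf6 are also exons of basic coding transcripts.

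In Srsf3 the poison exon, chr17:29039454-29039909, is 456 nt long and carried 2 peaks, of 26 tags over 186 nt and 10 tags over 70 nt. Its premature stop codon, in capitals in the window below, lies 31 nt into the exon, and the first peak begins 155 nt after it.
Srsf3 poison exon, chr17:29039472-29039501: tctcaccaccctcTGAatctgcattagcca
The 26 tags compare with 257 tags at the tallest 3' UTR peak of the gene and with no peak in its CDS. The exon is absent from the principal transcript and from the basic set, in which both peaks counted as intronic. With all annotated transcripts, exonic sequence ran on from the same start to 29040141, a length of 688 nt. The 3' edges of the peaks lay 314 and 230 nt from the nearest annotated end. Tags of the decay form and of another transcript with this sequence cannot be told apart.

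**Figure D5:**
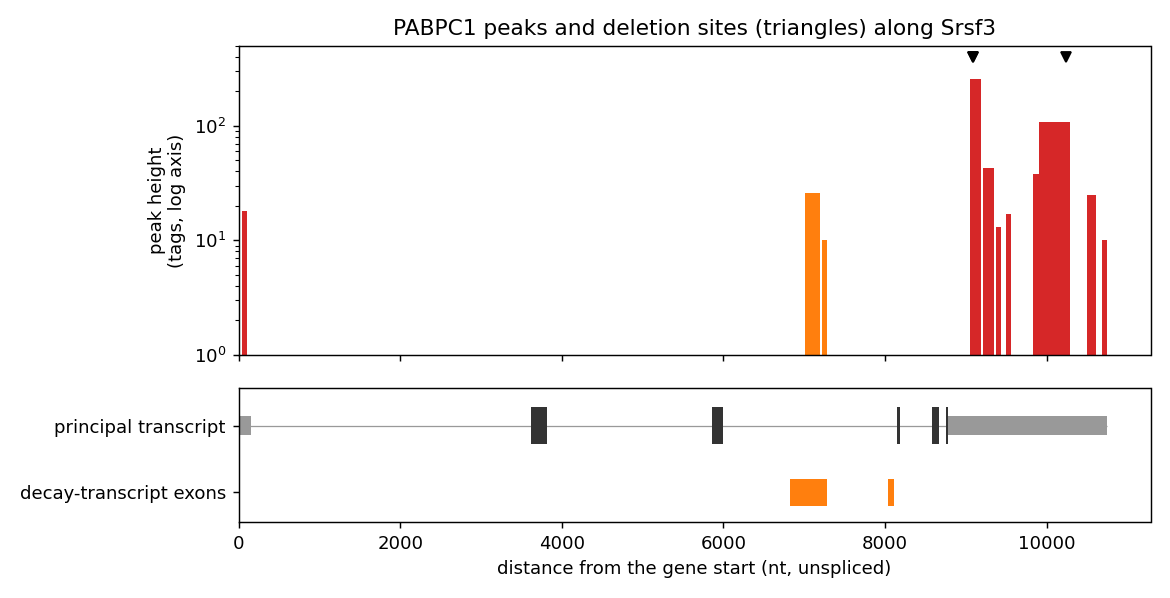
Peak heights (tags, log axis) and deletion sites (triangles, adjoining sites overlapping) along Srsf3 by distance from the gene start (nt, unspliced), above the principal transcript, with its coding parts in black and untranslated parts in grey, and the exons of decay transcripts in its introns, in orange. The 2 orange peaks, of 26 and 10 tags, have their midpoints on the larger decay exon, whose sequence is not particular to the decay form. The tallest of the 8 peaks in the 3' UTR has 257.

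Srsf1 and Srsf2 also have a decay form, made by splicing an intron out of the 3' UTR of the principal transcript. The intron of Srsf1 spans 881 nt (chr11:88050096-88050976), contained the midpoint of the 170-tag peak and held the site at position 88050489, deleted in 12 of 61 tags, 19.7% (10.6 to 31.8). That of Srsf2 spans 502 nt (chr11:116850354-116850855) and contained the midpoint of the 141-tag peak, with no deletion site in the intron. This peak, 828 nt wide, reached past both ends of the intron, and its 2 deletion sites lay outside it. The 170-tag peak of Srsf1, 944 nt wide, reached past the 3' end of its intron. Summit positions are not given, so peak height inside the introns cannot be told apart from height beside them. Both peaks were lower than the tallest peak of their gene, at 627 and 235 tags.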

How the data were processed

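Per the labels, PABPC1 CLIP-seq (3 samples) and mRNA-seq (2 samples) of MEL cells were each deposited as pooled files. Tools listed without roles are, per the submitters' processing notes, HTSeq 0.6.0, TopHat2 2.0.12, Novoalign 3.02.02 and cutadapt 1.4.2, with the build mm10. The name of the deposited deletion list holds the term CIMS and further labels that are not explained. Beyond that, callers and thresholds behind the peaks and deletion sites were not given in the sources used here. Levels of mRNA were given as RPKM by the authors. RPKM of 4946 genes with an unchanged identifier turned into whole reads within 0.01 for 100% of the 3560 genes under 200 reads, with 35251228 reads in all. The deposited deletion sites are counts of tags with a deletion, beside a second number taken as the tags covering the base. The peak score in the deposited list is not explained. It was read as height in tags because coverage at 99.8% of the 10137 sites inside a peak did not exceed it.

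Sites were placed by strand on GENCODE M21 basic transcripts, a peak by its midpoint, with the order 3' UTR, 5' UTR, CDS, non-coding exon, intron. Placement was tested on simulated transcripts. The principal transcript was the one with the best APPRIS tag, then the longest CDS. Of the RPKM genes, 98.4% were found by identifier. Summed height is over a gene's exonic peaks, and the ratio to RPKM used a pseudocount of 1 and protein-coding genes with RPKM of at least 1, genes without a peak included. The alternatives were other height and deletion minimums, other placements, transcript sets, pseudocounts and flanks. No test was run, since the files hold no replicates. All 10 members were named, and from the hnRNP and splicing partner lists the 3 genes of highest RPKM and those with the extreme ratios. The members and lists were chosen with earlier results of these data known. Intervals are exact binomial at 95% (Python 3.11.15, scipy 1.17.1). Floors use 3 counts. Tags without molecular identifiers are not independent molecules.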

Additional observations from a re-analysis of the deposited data

How the results depend on the processing

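No paired analysis was possible because the files hold 1 pooled value per assay, and leaving out a replicate could not be run for the same reason. The median log2 ratio of SR genes stayed below that of protein-coding genes in all 6 alternatives tried, with a difference of -0.84 as reported and of between -0.92 (pseudocount 0.1) and -0.35 (no RPKM filter) otherwise. The comparison within the RPKM range of the SR genes, at -0.68, and per kb at -0.49, was chosen after seeing the data. It does not match mRNA level, since the median RPKM was 161 for SR genes and 44.1 for the protein-coding genes in that range. Of 40 values for single genes under an alternative, 2 changed side of the median, both for Srsf1, which stood 0.25 above it as reported, at -0.059 with the tallest peak and at -0.57 per kb of exon.

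Among peaks of at least 50 tags, 81.8% lay in 3' UTRs, 18.2% in CDS and 0% of 22 in introns. With all annotated transcripts these shares were 76.7%, 16.4% and 1.37%, and with exons of the principal transcript alone 50.7%, 31.5% and 16.4%. Counting any overlap of 1 nt put 35.6% of peaks in an intron. Poison exons with a peak numbered 1 when the midpoint, or at least 50 percent of the peak, had to lie inside. Counting exons of any transcript, which are not all poison exons, gave 4 with a peak. Among them was an Srsf10 exon with 6 peaks of up to 34 tags. It is also an exon of a basic coding transcript, and its peaks were counted in the 3' UTR. ATTAAA lay within 50 nt of 27.6% of SR sites, against 11.1% of all exonic sites. AATAAA or ATTAAA was near 8 of 29 SR sites (27.6%) against 3507 of 10029 of all at 20 nt, a smaller share, and near 55.2% against 50.1% at 50 nt, a larger one. All 29 sites, the 18 with at least 10 deletions and the 15 deleted in at least 10 percent of tags were in 3' UTRs. Peaks under 10 tags, 15 of the 73, rest on little depth.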

Other observations

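Within the span of Srsf2 1 peak lay on the opposite strand, where Mettl23 and Mfsd11 are annotated, and no other SR gene had one. Srsf12, a further SR gene, was not among the listed RPKM genes.

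Deletion sites were found in 8 of 10 SR genes, against 21 of 29 hnRNP genes (72.4%) and 19 of 33 splicing partners (57.6%). Hnrnpa2b1 held 17 sites at 2514 tags per kb. Clk1, a kinase of SR proteins that is known for its own retained introns, had a log2 ratio of height per kb to RPKM of 3.16, the highest of the splicing partners, and no intronic peak; it was chosen after its values were seen.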
